A study of Mus musculus with 16 samples.

Results

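ER chaperones and genes of the unfolded protein response were followed in mouse pancreatic islets as a set of 32 genes, listed by name for their function. The rule used no measured value, although the list was drawn up when earlier results of these data were known. All 32 were listed in both deposited tables, among the 16815 genes that the tables share and the 17864 that are in either. The set holds 9 Hsp70 and Hsp90 chaperones of the ER and their helpers, 6 lectin chaperones and disulfide isomerases, 5 genes of ER-associated degradation, 4 stress sensors and transcription factors, and 8 genes of the Atf4 branch, which is also called the integrated stress response. RNA was sequenced from isolated islets in 16 libraries, 4 in each of 4 groups, and the study asked how B7-H4, an immune checkpoint protein encoded by Vtcn1, acts in β cells.

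Flox mice were homozygous for a Vtcn1 allele with an exon between loxP sites and carried no Cre. B7-H4 cKO mice were littermates that carried the same alleles and Rip-Cre, a Cre recombinase under the rat insulin II promoter, which is active in β cells. Both groups were C57BL/6J mice on a normal chow diet, their age at islet isolation is not given in the sources used here, and islets of mice with Rip-Cre and no floxed allele were not among the groups, so that Cre and the deletion cannot be told apart. The mice of the other groups were fed a high-fat diet (HFD) for 8 weeks, with an age of 6 weeks given in the methods, and were sampled 5 weeks after infusion of an adeno-associated virus into the pancreatic duct. HFD Ctrl mice received AAV2/8-Ctrl and HFD OE mice received AAV2/8-Ins2-B7-H4, which carries B7-H4 and the fluorescent protein ZsGreen under the rat insulin 2 promoter. The methods name these mice Flox and the series text calls them WT, and by the methods both virus groups carried the floxed alleles without Cre. The libraries were Flox16, Flox17, Flox20 and Flox21, then cKO8, cKO9, cKO12 and cKO38, then Ctrl1, Ctrl2, Ctrl3 and Ctrl5, then OE1 to OE4, and the values of a group are given in this order throughout. Whether 1 library came from 1 mouse is not given in the sources used here, so p-values measure the spread between libraries of a group.

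Secretory proteins fold in the endoplasmic reticulum, and β cells send large amounts of proinsulin through it. When folding lags, the sensors Ire1 (Ern1), Perk (Eif2ak3) and Atf6 signal to the nucleus: Ire1 splices Xbp1, Atf6 is cleaved to a transcription factor, and Perk phosphorylates eIF2α, which slows translation and raises Atf4. Atf6 and spliced Xbp1 act on chaperone and degradation genes, while Atf4 acts on genes of amino acid supply and on Ddit3, Trib3 and Ppp1r15a. Acinar cells of the exocrine pancreas make digestive enzymes and also rely on this machinery.

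Some promoters of the set, which was listed for its function, carried elements of these branches. RefSeq windows of 250 bases before to 50 bases after the transcription start (build GRCm38.p6) were matched for 29 of the 32 genes, and Hyou1, Atf6 and Manf had no window. The ER stress response element (ERSE, CCAAT, then 9 bases of any kind, then CCACG, on either strand) stood in the windows of 9 of 29 genes (31.0%) against 0.119% of all 32851 windows. These were Calr, Canx, Creld2, Derl3, Dnajc3, Hsp90b1, Hspa5, Pdia6 and Syvn1. ERSE-II (ATTGG, 1 base of any kind, CCACG) was in the windows of Herpud1 and Dnajb11 (6.9% against 0.037%), and the Xbp1-type element UPRE (TGACGTGG) was in none of the 29 (0.676% of all). The Atf4-type element CARE (TGATGNAA) was in 5 windows (17.2% against 3.969%), those of Asns, Atf3, Chac1, Trib3 and Herpud1. The split followed the roles: ERSE was in 4 of 7 Hsp70 and Hsp90 chaperone windows, 3 of 6 lectin and isomerase windows, 2 of 5 degradation windows, 0 of 3 sensor windows and 0 of 8 Atf4-branch windows, while CARE was in 4 of 8 Atf4-branch windows. UPRE on the opposite strand begins with the last 5 letters of ERSE, so the matches of these can share bases, and in the set no matches of different elements overlapped. A match of letters is a description and not a bound site, and its absence says nothing about a factor. Genes were put in the set and in its roles by known function, so these shares and the split by role describe the list and test nothing. The windows of 4 of the 5 genes that passed the test in the chow comparison are shown, with ERSE, ERSE-II and CARE matches in capitals, followed by those of Atf3 and Chac1 for the Atf4 branch. The fifth, Pdia3, had no match. They run 5′ to 3′ toward the start, from base 250 before it, and stop where an exon of GENCODE release M21 begins: Hsp90b1 is chr10:86705510-86705694 (- strand), Canx chr11:50325674-50325923 (- strand), Derl3 chr10:75893148-75893397 (+ strand), Herpud1 chr8:94386179-94386428 (+ strand), Atf3 chr1:191183341-191183583 (- strand) and Chac1 chr2:119350992-119351228 (+ strand).
Hsp90b1: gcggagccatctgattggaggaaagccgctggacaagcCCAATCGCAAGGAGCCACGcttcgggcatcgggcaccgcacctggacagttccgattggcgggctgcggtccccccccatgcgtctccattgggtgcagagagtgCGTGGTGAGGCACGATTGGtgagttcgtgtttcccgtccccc
Canx: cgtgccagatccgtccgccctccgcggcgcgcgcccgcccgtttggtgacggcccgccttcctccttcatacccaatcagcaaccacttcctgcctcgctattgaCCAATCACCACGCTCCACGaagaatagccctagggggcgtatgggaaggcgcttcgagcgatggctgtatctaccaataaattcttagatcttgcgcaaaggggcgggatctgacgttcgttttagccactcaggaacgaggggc
Derl3: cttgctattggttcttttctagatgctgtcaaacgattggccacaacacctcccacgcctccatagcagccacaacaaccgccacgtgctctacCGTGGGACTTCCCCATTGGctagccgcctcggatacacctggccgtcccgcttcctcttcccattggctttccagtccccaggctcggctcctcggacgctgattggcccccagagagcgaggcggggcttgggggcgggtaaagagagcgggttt
Herpud1: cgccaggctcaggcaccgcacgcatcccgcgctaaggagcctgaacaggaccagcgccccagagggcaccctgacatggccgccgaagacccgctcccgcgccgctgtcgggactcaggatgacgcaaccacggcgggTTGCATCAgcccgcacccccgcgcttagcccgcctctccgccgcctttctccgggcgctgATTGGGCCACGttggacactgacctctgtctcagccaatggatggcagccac
Atf3: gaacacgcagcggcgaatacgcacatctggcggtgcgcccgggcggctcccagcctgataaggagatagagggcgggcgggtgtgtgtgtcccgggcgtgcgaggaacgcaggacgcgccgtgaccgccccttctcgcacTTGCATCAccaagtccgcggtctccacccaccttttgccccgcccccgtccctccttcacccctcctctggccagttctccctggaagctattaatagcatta
Chac1: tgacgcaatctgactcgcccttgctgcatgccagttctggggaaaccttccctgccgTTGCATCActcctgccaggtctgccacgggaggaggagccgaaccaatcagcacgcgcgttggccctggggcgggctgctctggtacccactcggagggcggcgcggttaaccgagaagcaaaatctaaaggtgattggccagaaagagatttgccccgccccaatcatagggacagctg

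Vtcn1 itself was near 0 in all chow libraries, at 0.0188 to 0.216 FPKM (fragments per kilobase of transcript and per library size, a level per length) in Flox and 0.0202 to 0.125 FPKM in cKO islets, so the knockout labels could not be checked from these values. The paper reports less B7-H4 mRNA by quantitative PCR and less protein by Western blot in cKO than in Flox islets. In the HFD libraries Vtcn1 was 0.0636 to 0.371 FPKM in Ctrl and 40.0 to 128 FPKM in OE islets. The islets held acinar RNA in unequal amounts. The summed FPKM of 28 acinar markers, of 29 listed and none of them at 0 in all libraries, was 28.9%, 37.1%, 11.2% and 7.77% of all FPKM in the Flox libraries and 37.9%, 48.0%, 44.9% and 47.4% in the cKO libraries. It was 5.74%, 59.9%, 78.2% and 2.26% in the Ctrl libraries and 15.1%, 12.4%, 13.4% and 11.6% in the OE libraries. Ctrl2 and Ctrl3 therefore stood apart from Ctrl1 and Ctrl5, and Flox16 and Flox17 from Flox20 and Flox21. Ctrl5 also differed from Ctrl1 and the OE libraries in other cell types. The 4 α-cell markers held 13.2% of FPKM in Ctrl5, 3.32% in Ctrl1 and 3.53 to 4.14% in OE libraries. The 6 macrophage markers summed to 438 FPKM in Ctrl5, 139 FPKM in Ctrl1 and 73.1 to 95.4 FPKM in OE libraries. The 9 β-cell markers, Ins1 and Ins2 included, were present in every group, at 35.3 to 54.7% of FPKM in Flox, 25.8 to 32.8% in cKO, 4.37 to 55.0% in Ctrl and 46.9 to 51.1% in OE libraries. In such bulk samples fewer cells of a type and less RNA per cell cannot be told apart, and FPKM values share 1 library total, so that they are levels relative to the other RNA of the library. Relative depth was estimated within each table from the steps between the lowest values, with the table's median library set to 1. It was 0.942 to 1.08 in the chow libraries and 0.841 to 1.08 in the HFD libraries. Depth was not compared between the tables, and the depth in reads is unknown.

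The 32 genes made up 0.660%, 0.718% and 0.726% of all FPKM in Flox21, Flox20 and Flox16, 0.408% in Flox17, and 0.444 to 0.499% in the cKO libraries. In the HFD libraries they made up 0.675%, 0.285%, 0.232% and 0.552% in Ctrl and 0.541 to 0.594% in OE. Chaperones supplied most of it: Hspa5 had the highest mean of the set in every group, at 652 ± 171 FPKM (SD, n = 4) in Flox and 434 ± 24.0 FPKM (SD, n = 4) in cKO islets, and Trib3 the lowest, at 2.91 ± 3.98 FPKM (SD, n = 4) and 2.78 ± 0.968 FPKM (SD, n = 4). The summed level of the 9 Hsp70 and Hsp90 chaperones and helpers was 2432, 1348, 2506 and 2178 FPKM in Flox and 1563, 1466, 1369.6 and 1462 FPKM in cKO libraries. Flox17 lay below every cKO library and the other 3 Flox libraries above them all. The same sum was 2207, 889, 640.3 and 1618 FPKM in Ctrl and 1831, 1942, 1918 and 1973 FPKM in OE libraries, with Ctrl2 and Ctrl3 far below the rest. The plot of scaled values by library shows these blocks of libraries.

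**Figure D1:**
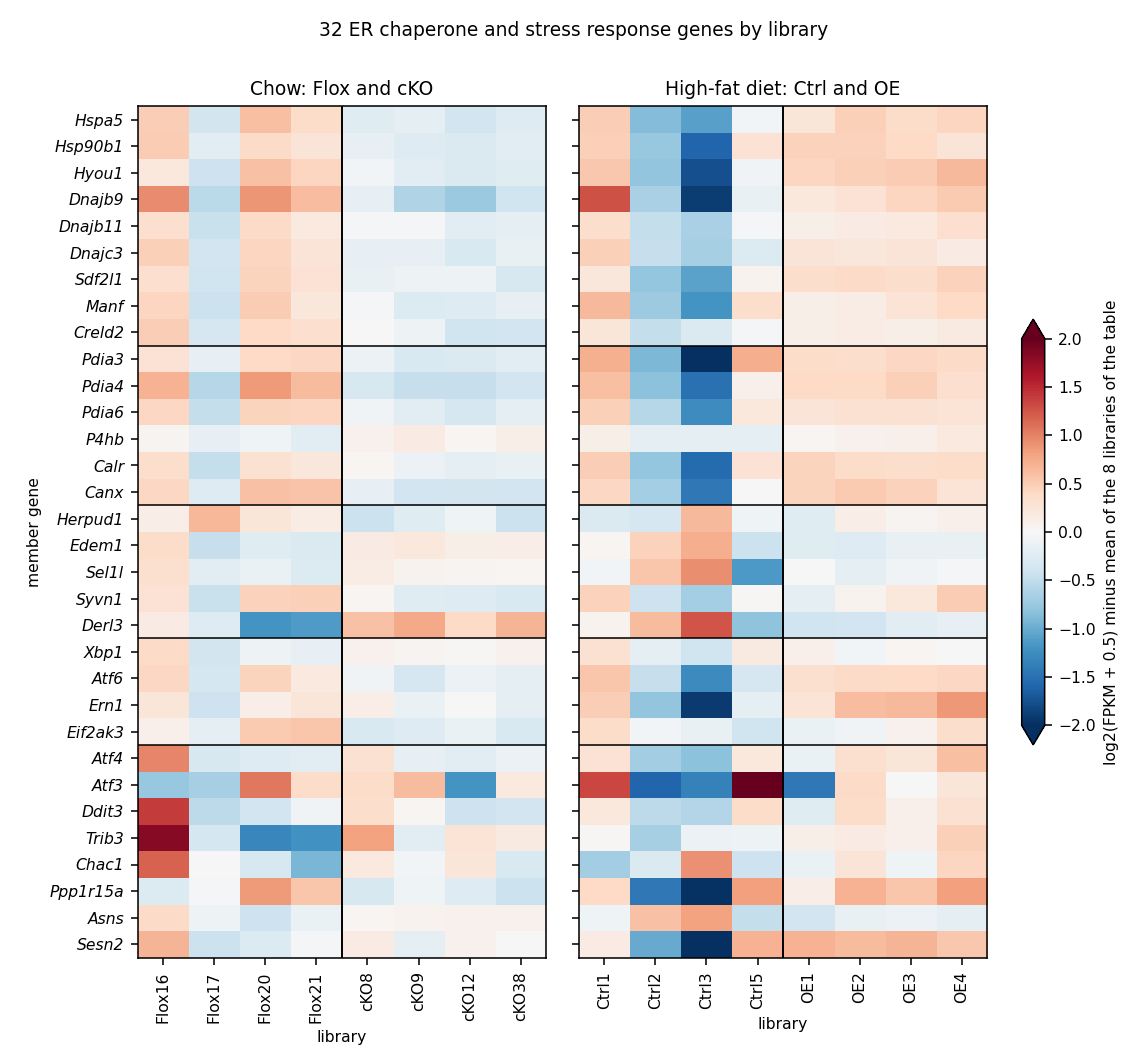
Each cell is the log2(FPKM + 0.5) of 1 of the 32 genes (rows, ordered by role) in 1 of the 16 libraries (columns), minus the mean of that gene over the 8 libraries of its table, with colours clipped at ±2. Flox17, Ctrl2 and Ctrl3 are low for most chaperones, Flox16 is high for Atf4, Ddit3, Trib3 and Chac1, and the OE libraries resemble each other.

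Groups differed in the spread of the genes between libraries. This spread was not computed for all genes tested, so it cannot be called particular to the set. It was wide in the groups with uneven acinar shares, Flox and HFD Ctrl, and the cause was not tested. The median coefficient of variation of the 32 genes, the SD as a percentage of the mean over 4 libraries, was 25.4% in Flox, 7.69% in cKO, 50.9% in HFD Ctrl and 6.94% in HFD OE islets. It ran from 8.42% for P4hb to 137% for Trib3 in Flox, from 1.61% for Asns to 49.5% for Atf3 in cKO, from 11.1% for P4hb to 114% for Atf3 in Ctrl and from 1.59% for Pdia6 to 46.2% for Atf3 in OE libraries. P4hb was thus the steadiest of the set in both groups with uneven acinar shares. By role, the Atf4 branch had the widest median in Flox, at 60.0% against 24.4% for the Hsp70 and Hsp90 chaperones, and also in cKO (17.6% against 7.36%) and OE libraries (19.4% against 6.77%). In Ctrl libraries the medians were 50.03% and 50.7%.

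The comparison of cKO with Flox islets asks how loss of B7-H4 in β cells changes islet RNA. Of the 32 genes, Derl3 rose and Hsp90b1, Pdia3, Canx and Herpud1 fell at an adjusted p under 0.05 (limma, Benjamini-Hochberg over the 11804 genes tested), which is 5 of 32 (15.6%) against 13.8% of all genes tested. By direction it was 1 of 32 against 1.02% of all genes that rose and 4 of 32 (12.5%) against 12.8% that fell, so the share that fell was near the background. The log2 fold change, the difference of the group means of log2(FPKM + 0.5), was below 0 for 22 of 32 genes against 86.9% of all, and its median was -0.34 both for the set and for all genes. At an unadjusted p under 0.05, 1 gene of the set was higher and 14 were lower, against 3.12% and 38.3% of all genes. Derl3 alone passed with more than a 2-fold difference (0.339% of all genes higher and 0.974% lower did). The groups did not overlap for Derl3 (higher in all cKO libraries, as for 1.32% of all genes) and for Herpud1 (lower in all, as for 15.4%). The plot of fold changes shows the set spread about the median of all genes.

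These counts moved with the libraries and the scaling. Without Flox17, 1 gene of the set rose and 19 fell (62.5% of the 32), when 7092 of 11821 genes passed. Without Flox16, 3 rose and 5 fell (25.0%), when 24.2% of all genes passed. Without Flox20, Flox21 or cKO12 1 fell, when 137, 142 and 365 genes of the table passed (1.16%, 1.21% and 3.09%). Members that passed in either direction were then 6.25%, 3.12% and 6.25% of the set. Without cKO9 or cKO38 none fell, when 19 and 89 genes passed (0.161% and 0.751%). Derl3 no longer passed without Flox21, cKO9 or cKO38. The set thus gained and lost calls together with the table. With Flox16 and Flox17 both left out, which compares 4 cKO libraries with 2, 8 of the genes rose and 19 fell (84.4% of the 32), when 8805 of 11816 genes (74.5%) passed. After division by median-of-ratios factors, which set the median gene near 0, no member passed, and the set had a median of 0.035. When all genes with a mean above 0 were tested in place of those at 0.5 FPKM or more, no gene of the table passed. With the acinar share as a term of the model no gene of the table passed. All 4 cKO libraries had larger acinar shares than the 4 Flox libraries, so it and the genotype cannot be told apart in these 8 libraries.

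**Figure D2:**
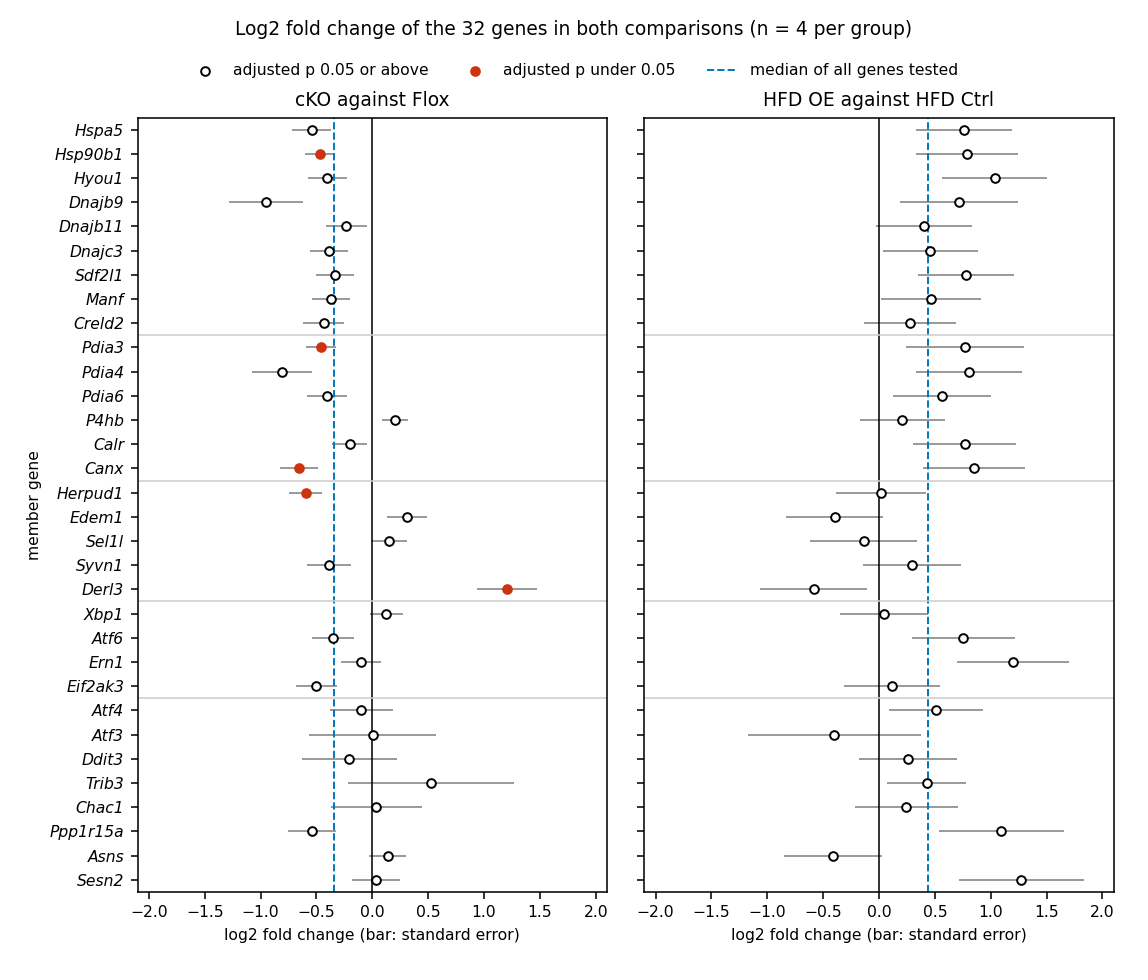
Points are log2 fold changes of the 32 genes for cKO against Flox (left) and HFD OE against HFD Ctrl (right), bars are standard errors with 4 libraries per group, red points passed at an adjusted p under 0.05, and the dashed line is the median of all genes tested. The chow genes scatter around that median at -0.34 with Derl3 far to the right, and no HFD gene passed.

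Among the Hsp70 and Hsp90 chaperones, all 9 genes had log2 fold changes below 0 in cKO islets, with a median of -0.40, and 1 passed. Hsp90b1, which encodes the ER Hsp90 Grp94, was 594, 357, 543 and 498 FPKM in the Flox libraries and 372, 347, 340.3 and 355 FPKM in the cKO libraries. It fell by 0.47 ± 0.14 (SE) on the log2 scale (adjusted p = 0.0360), and the groups overlapped, since Flox17 lay among the cKO libraries. Its change ran from -0.62 to -0.38 when each library was left out in turn, and it no longer passed in 5 of 8 such fits. With median-of-ratios scaling it was -0.084 (adjusted p = 0.731) and with the acinar share as a term -0.20 (adjusted p = 0.814). Hspa5, the Hsp70 chaperone BiP that also holds the sensors inactive, was 732, 406, 793 and 675 FPKM and 442, 455, 399 and 439.8 FPKM. Its log2 fold change of -0.54 ± 0.17 (SE) missed the threshold (adjusted p = 0.0501, and 0.0485 with a pseudocount of 1), with 3 Flox libraries above all cKO libraries and Flox17 among them.

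Dnajb9, the co-chaperone ERdj4, had the largest log2 fold change of this group, at -0.95 ± 0.33 (SE, adjusted p = 0.0785). It was 236, 84.5, 225 and 188 FPKM in Flox and 109, 80.5, 73.2 and 93.1 FPKM in cKO libraries, and Flox17 again lay within the cKO range. Dnajc3, the co-chaperone P58IPK, was 118, 64.7, 114 and 101 FPKM and 75.7, 75.8, 68.1 and 76.1 FPKM (log2 fold change -0.39 ± 0.17, adjusted p = 0.0968). Flox17 had the lowest Dnajc3 of the 8 libraries. The exchange factor Hyou1, the Hsp40 Dnajb11, the BiP complex partner Sdf2l1, the secreted factor Manf and the disulfide isomerase-like Creld2 had log2 fold changes of -0.40, -0.23, -0.33, -0.37 and -0.44, with adjusted p from 0.0866 to 0.317. Their cKO ranges lay within their Flox ranges apart from Creld2, whose lowest cKO value of 39.2 FPKM was just under Flox17 at 40.9 FPKM. After median-of-ratios scaling the median of the 9 genes was -0.019. Heat shock genes of the cytosol and mitochondria were lower as well: 5 of 8 fell, against 12.8% of all genes, with a list median of -0.86, -0.48 after median-of-ratios scaling and -0.15 with the acinar share as a term. Their summed level was 447 to 1068 FPKM in Flox and 326 to 408 FPKM in cKO libraries.

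Lectin chaperones and disulfide isomerases had a median log2 fold change of -0.43, with 5 of 6 below 0, and 2 fell. Canx, the membrane lectin calnexin that holds glycoproteins until they fold, was 135, 85.1, 153 and 150.3 FPKM in Flox and 90.1, 77.3, 78.1 and 77.8 FPKM in cKO libraries. It fell by 0.66 ± 0.17 (SE) on the log2 scale (adjusted p = 0.0253), and only Flox17 lay within the cKO range, below cKO8. Pdia3, the isomerase that works with calnexin and calreticulin, was 337, 247, 363 and 367 FPKM and 255, 224, 226 and 238 FPKM and fell by 0.46 ± 0.14 (SE) on the log2 scale (adjusted p = 0.0361). Leaving out each library in turn gave -0.85 to -0.57 for Canx and -0.59 to -0.40 for Pdia3, and each no longer passed in 5 of 8 fits. With median-of-ratios scaling they were -0.27 (adjusted p = 0.109) and -0.076 (adjusted p = 0.636), and with the acinar share as a term -0.095 and -0.076, neither of which passed.

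Pdia4, another isomerase, had the largest difference of this group without passing, -0.81 ± 0.27 (SE, adjusted p = 0.0582). It was 89.8, 37.0, 100.3 and 86.3 FPKM in Flox and 44.1, 40.1, 40.1 and 42.4 FPKM in cKO libraries, with Flox17 the lowest of all 8. Pdia6, also an isomerase, was 302, 162, 308 and 305 FPKM and 215, 196, 178 and 199 FPKM (-0.40 ± 0.18, adjusted p = 0.109), and here too Flox17 was lowest and the other 3 Flox libraries were close together. Calr, the soluble lectin calreticulin, had -0.20 ± 0.16 (adjusted p = 0.310). P4hb, the classical disulfide isomerase, was the 1 gene of the group above 0. It was 395, 337, 358 and 327 FPKM in Flox and 402, 425, 390.04 and 412 FPKM in cKO libraries (0.20 ± 0.12, adjusted p = 0.170), where 3 of 4 cKO libraries exceeded every Flox library. When libraries were scaled to genes outside the acinar list, P4hb passed at 0.62, in place of Derl3 and the genes that fell. The group median was -0.048 after median-of-ratios scaling.

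ER-associated degradation, which returns misfolded proteins to the cytosol, held genes at both ends. Derl3, a Derlin of the retrotranslocation channel, was 32.3, 23.9, 12.3 and 12.8 FPKM in Flox and 43.4, 48.7, 37.8 and 46.1 FPKM in cKO libraries. It rose 2.31-fold (log2 fold change 1.21 ± 0.27, SE, adjusted p = 0.0251), and every cKO library exceeded every Flox library. Within Flox, the libraries with the larger acinar shares, Flox16 and Flox17, had more Derl3 than Flox20 and Flox21. With the acinar share as a term its log2 fold change was 0.31 (adjusted p = 0.791), and with median-of-ratios scaling 1.58 (adjusted p = 0.0718).

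Herpud1, a membrane protein that recruits the degradation complex, was 169, 245, 181 and 170.4 FPKM in Flox and 113, 129.7, 145 and 114 FPKM in cKO libraries. It fell by 0.59 ± 0.15 (SE) on the log2 scale (adjusted p = 0.0226), with every cKO library below every Flox library. Flox17 was the highest, opposite to its low chaperones. The change ran from -0.67 to -0.47 over fits without 1 library, and Herpud1 no longer passed without cKO9 or cKO38. With the acinar share as a term it was -0.88 (adjusted p = 0.498) and with median-of-ratios scaling -0.21 (adjusted p = 0.597).

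The ubiquitin ligase scaffold Sel1l, its ligase Syvn1 (Hrd1) and the mannosidase-like Edem1 did not pass. Edem1 was 51.7, 28.9, 33.7 and 32.7 FPKM in Flox and 44.7, 46.4, 43.6 and 43.7 FPKM in cKO libraries (0.31 ± 0.18, adjusted p = 0.173), so 3 Flox libraries were below all cKO libraries and Flox16 was above them. Sel1l showed the same order (0.15 ± 0.16, adjusted p = 0.451), while Syvn1 was -0.39 ± 0.20 (adjusted p = 0.135). As a group the 5 degradation genes had a median log2 fold change of 0.15, beside -0.34 for all genes tested and -0.34 for 17 other genes of ER-associated degradation, 16 of which were below 0.

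The sensors and Xbp1 did not pass. Eif2ak3 (Perk) had the largest difference, at 19.5, 15.97, 26.2 and 26.7 FPKM in Flox and 14.5, 15.1, 16.4 and 14.6 FPKM in cKO libraries (-0.50 ± 0.19 SE, adjusted p = 0.0620), with Flox17 inside the cKO range. Atf6 was 16.1 to 28.4 FPKM against 16.3 to 19.7 FPKM (-0.35 ± 0.19, adjusted p = 0.151), and Ern1 (Ire1) was 25.0 to 40.0 FPKM against 29.1 to 36.8 FPKM (-0.10 ± 0.18, adjusted p = 0.639). Xbp1, whose gene total does not separate the spliced form, was 199, 118, 143 and 137 FPKM in Flox and 164, 159, 156 and 162 FPKM in cKO libraries (0.13 ± 0.15, adjusted p = 0.493). The cKO values of Xbp1 had a coefficient of variation of 2.06% and lay inside the Flox range.

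In the Atf4 branch no gene passed in cKO against Flox, and the median log2 fold change was 0.018 (0.37 after median-of-ratios scaling). With the acinar share as a term this median was -0.20. Atf4, the transcription factor of the branch, was 183, 74.3, 77.7 and 80.2 FPKM in Flox and 115, 82.8, 79.5 and 85.5 FPKM in cKO libraries (-0.098 ± 0.28 SE, adjusted p = 0.790). Flox16 stood far above the other 7 libraries. Ddit3, the factor Chop, was 14.1, 3.34, 3.76 and 4.78 FPKM and 6.59, 5.22, 3.65 and 3.76 FPKM, and Trib3, a pseudokinase that Atf4 and Chop induce, was 8.85, 1.58, 0.571 and 0.642 FPKM and 4.11, 1.80, 2.71 and 2.50 FPKM. For both, Flox16 was highest and cKO8 next. Chac1, a glutathione-degrading enzyme, was 27.0, 11.6, 9.18 and 5.93 FPKM and 13.4, 11.2, 13.8 and 9.38 FPKM, again with Flox16 highest.

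Sesn2, a stress protein that restrains mTORC1, was 15.4 FPKM in Flox16 and 6.86 to 10.6 FPKM in the other 7 libraries, and Asns, asparagine synthetase, was 90.4 FPKM in Flox16 and 51.5 to 73.5 FPKM in the others. Ppp1r15a, the Gadd34 subunit that reverses eIF2α phosphorylation, went another way: it was 14.0, 16.6, 31.4 and 25.2 FPKM in Flox and 13.6, 16.1, 14.2 and 12.6 FPKM in cKO libraries (-0.54 ± 0.22 SE, adjusted p = 0.0776), with Flox16 low. Atf3, an immediate early stress factor, was 1.58, 1.71, 6.74 and 4.01 FPKM and 4.01, 4.94, 1.03 and 3.52 FPKM (0.0025 ± 0.57, adjusted p = 0.998). Atf3 was lowest in cKO12, Flox16 and Flox17, where the summed level of 8 immediate early genes was 124, 132 and 112 FPKM, against 172 to 438 FPKM in the other 5 chow libraries.

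Flox16 was therefore the library of highest level for 6 of the 8 Atf4-branch genes, for 15 of the 32 in all, and for 17 of the 30 other Atf4 targets tested, such as genes of serine synthesis, amino acid transport and tRNA charging, against 11.6% of all genes tested. After median-of-ratios scaling the counts were 5 of 8, 19 of 32 and 13 of 30, against 16.8% of all genes. On that scale Flox16 was also highest for 7 of 9 Hsp70 and Hsp90 chaperones and 5 of 6 lectin chaperones and isomerases. In FPKM these counts were 4 of 9 and 1 of 6. A high Flox16 was thus not particular to the Atf4 branch after scaling. This library was singled out after its values were seen, so the counts are descriptions. Without Flox16 the log2 fold changes were 0.21 for Atf4 and 0.23 for Ddit3.

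**Figure D3:**
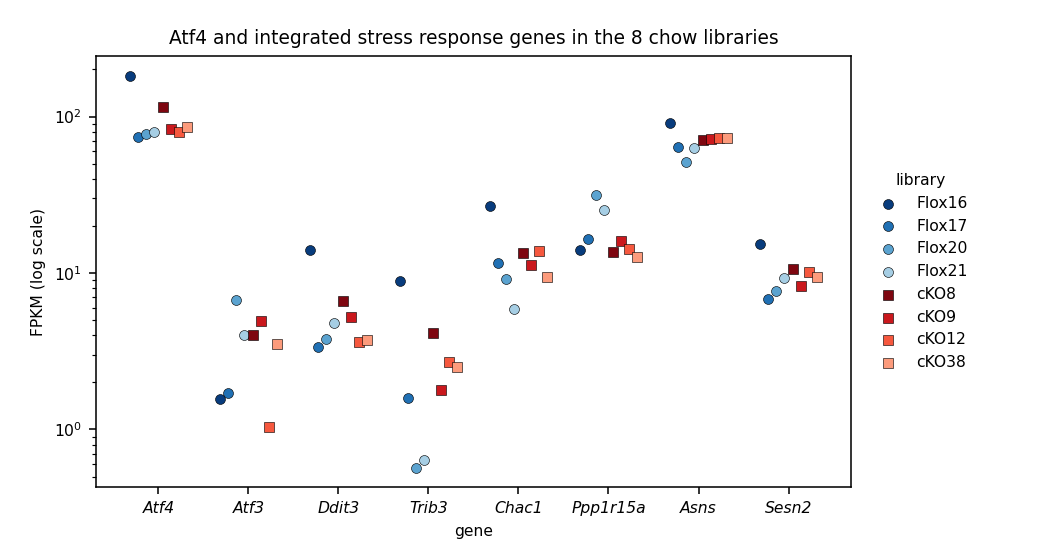
The FPKM (log axis) of the 8 Atf4-branch genes is plotted for each of the 4 Flox libraries (blue circles) and 4 cKO libraries (red squares). Flox16, the darkest circle, is the highest point for Atf4, Ddit3, Trib3, Chac1, Asns and Sesn2 but not for Atf3 and Ppp1r15a.

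Genes of the pathway outside the set were read from lists chosen by function, and log2 fold changes are given for all that passed in cKO against Flox. Shares are to be read against the 1.02% of all genes that rose and the 12.8% that fell. Of 17 other ER folding factors 1 rose, the ER prolyl isomerase Fkbp11 (0.70 ± 0.19 (SE), adjusted p = 0.0310), and 2 fell. These were Ero1b, the oxidase that recharges disulfide isomerases in β cells (-0.67 ± 0.14 (SE), adjusted p = 0.0147), and the Hsp70-like Hspa13 (-0.73 ± 0.22 (SE), adjusted p = 0.0421). Ero1b was 328 to 443 FPKM in Flox and 221 to 317 FPKM in cKO libraries, without overlap. Of 17 other degradation genes 3 fell, the Derlins Derl1 (-0.60) and Derl2 (-0.64), opposite to Derl3, and the ubiquitin-conjugating enzyme Ube2g2 (-0.61). Of 18 translocon and signal peptidase genes 4 fell, Sec62 (-0.51), Srp54a (-0.59), Spcs2 (-0.56) and Sec61a1 (-0.54). Of 30 other Atf4 targets 1 rose, the secreted Stc2 (1.33), and 2 fell, the lipoprotein receptor Vldlr (-0.95) and the factor Cebpb (-0.72). Of 18 other stress regulators 2 fell, the ER membrane factors Creb3l2 (-0.69) and Atf6b (-0.61). The shares that fell were 11.8%, 17.6%, 22.2%, 6.67% and 11.1% of these lists, in the order given, on few genes each. List medians ran from -0.40 for the translocon to -0.016 for the other Atf4 targets, beside -0.34 for all genes.

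The comparison of HFD OE with HFD Ctrl islets asks what added B7-H4 changes in β cells of HFD-fed mice. No gene of the set passed (0 of 32, against 0.033% of the 12132 genes tested, 4 genes, all higher), and the smallest adjusted p was 0.591 by limma. At an unadjusted p under 0.05 3 genes were higher and 0 lower, against 5.58% and 0.833% of all genes. These were Hyou1, Ern1 and Sesn2. The log2 fold change was above 0 for 27 of 32 genes, against 84.2% of all, with a median of 0.46 beside 0.44 for all genes. Of the set 2 genes did not overlap between groups, Sdf2l1 and Trib3, both higher in OE islets, as for 5.61% of all genes, and none lower (against 0.964%). With the spread of Ctrl2 and Ctrl3 in the fit, standard errors were 0.353 to 0.776 on the log2 scale, and a p that misses the threshold here does not show that values did not differ.

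Hsp70 and Hsp90 chaperones (median 0.72) and lectin chaperones and isomerases (median 0.77) were all above 0 on the log2 scale. Hyou1 had the largest difference of the chaperones, with 188, 74.6, 38.1 and 123 FPKM in Ctrl and 175, 179.97, 184 and 204 FPKM in OE libraries (1.04 ± 0.47 SE, adjusted p = 0.591). Ctrl1 alone of the Ctrl libraries lay inside the OE range. Hspa5 was 597, 233, 201 and 408 FPKM and 504, 596, 552 and 575 FPKM (0.77 ± 0.43, adjusted p = 0.591), with Ctrl1 at the level of the highest OE library. Sdf2l1 was 96.3, 48.2, 39.0 and 86.4 FPKM in Ctrl and 106, 108, 105 and 115 FPKM in OE libraries (0.78 ± 0.43, adjusted p = 0.591).

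Canx had the largest difference among the lectins, with 93.9, 43.8, 25.8 and 71.2 FPKM in Ctrl and 96.7, 102, 97.1 and 85.7 FPKM in OE libraries (0.85 ± 0.45 SE, adjusted p = 0.591). P4hb was 363, 293, 295 and 294 FPKM and 341, 352, 357 and 381 FPKM (0.21 ± 0.38, adjusted p = 0.765). Ctrl1 was apart from the other 3 Ctrl libraries for P4hb, which nearly coincided although their acinar shares ran from 2.26% to 78.2%. Pdia3 had the widest Ctrl range of the 6 genes as a ratio, 392, 128, 56.7 and 396 FPKM, around a narrow OE range of 307 to 320.4 FPKM.

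The degradation genes had a median of -0.14, and Derl3, Edem1 and Sel1l were below 0. Derl3 was 27.3, 40.5, 62.7 and 14.6 FPKM in Ctrl and 19.5, 19.7, 22.0 and 23.0 FPKM in OE libraries (-0.58 ± 0.48 SE, adjusted p = 0.599), highest in Ctrl3 and lowest in Ctrl5. Herpud1 was 139.7, 135, 268 and 161 FPKM and 144, 186, 177 and 182 FPKM (0.022 ± 0.40, adjusted p = 0.977), also highest in Ctrl3. Of the 5 degradation genes 4 had their highest level in Ctrl3, as had Chac1 and Asns, whereas Ctrl3 was lowest for 21 of the 32 genes and for 85.9% of all genes tested.

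Of the sensors, Ern1 had the largest difference, with 25.0, 10.0, 4.33 and 15.4 FPKM in Ctrl and 21.3, 27.4, 27.9 and 32.5 FPKM in OE libraries (1.20 ± 0.50 SE, adjusted p = 0.591). Atf6 followed (0.76 ± 0.46, adjusted p = 0.591), and Eif2ak3 and Xbp1 were near 0 (0.12 and 0.045). In the Atf4 branch Sesn2 was 9.20, 3.83, 1.15 and 13.5 FPKM in Ctrl and 13.6, 13.0, 13.3 and 12.2 FPKM in OE libraries (1.28 ± 0.56, adjusted p = 0.591). Ctrl1, Ctrl2 and Ctrl3 were below the OE range, while Ctrl5 lay in it.

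Atf4 was 153, 77.8, 71.1 and 145 FPKM in Ctrl and 114, 157, 149 and 191 FPKM in OE libraries, and Ddit3 3.74 to 7.71 FPKM and 4.86 to 7.68 FPKM. Trib3 was 1.37, 0.666, 1.20 and 1.23 FPKM and 1.496, 1.56, 1.48 and 2.07 FPKM, with OE4 above the other OE libraries, and Chac1 4.82, 6.55, 15.6 and 5.93 FPKM and 7.37, 9.81, 7.62 and 11.1 FPKM, with Ctrl3 highest. Atf3 and Ppp1r15a split the Ctrl group. Atf3 was 17.2, 1.83, 2.26 and 36.8 FPKM in Ctrl and 2.12, 8.65, 6.56 and 7.78 FPKM in OE libraries, and Ppp1r15a 46.7, 12.9, 8.63 and 63.1 FPKM and 39.0, 57.6, 52.1 and 62.8 FPKM. Both were high in Ctrl1 and Ctrl5, where the immediate early genes summed to 518 and 731 FPKM, and low in Ctrl2 and Ctrl3, where they summed to 94.7 and 106 FPKM.

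With Ctrl2 and Ctrl3 left out, which leaves Ctrl1 and Ctrl5 against 4 OE libraries, 2993 of 12311 genes (24.3%) passed, and with them 3 of the 32 (9.38%): Chac1 was higher in OE islets (log2 fold change 0.68, adjusted p = 0.0343), and Atf3 (-2.07, adjusted p = 0.0272) and Pdia3 (-0.33, adjusted p = 0.0495) were lower. The set then had a median log2 fold change of 0.063, with 21 genes above 0. This fit rests on Ctrl5, whose α-cell and macrophage markers were above those of every OE library, and the cause of these differences was not tested. Leaving out any 1 library gave no passing member. Median-of-ratios scaling moved the set's median to -0.067, those of the chaperone groups to 0.17 and 0.21, and that of the degradation genes to -0.69. With the acinar share as a term these medians were, in the same order, 0.17, 0.21, 0.18 and 0.011. In the other lists of the pathway no gene passed in OE against Ctrl, with list medians from 0.17 to 0.49.

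Some genes had lower and others higher levels in Ctrl3 than in Ctrl1, and the other libraries did not all follow the acinar share. In Ctrl3, with an acinar share of 78.2%, Canx was 25.8 FPKM and Atf6 5.70 FPKM, against 93.9 and 21.6 FPKM in Ctrl1, with 5.74%. Derl3, in contrast, was 62.7 FPKM in Ctrl3 and 27.3 FPKM in Ctrl1, Sel1l 77.8 and 39.0 FPKM, and Asns 84.7 and 45.1 FPKM. Derl3 of the cKO libraries, 37.8 to 48.7 FPKM at acinar shares of 37.9 to 48.0%, lay between Ctrl1 and Ctrl3. Canx, however, was higher in all cKO libraries (77.3 to 90.1 FPKM) than in Ctrl5, which had an acinar share of 2.26%. Ctrl5 also had an α-cell marker share of 13.2%. Asns was highest not in Ctrl3 but in Flox16, at 90.4 FPKM and a share of 28.9%. With the acinar share as a term of the HFD model 542 genes passed and none of the set. The tables were normalized separately, and diet, virus and experiment differ between them, so levels are placed side by side without a test.

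**Figure D4:**
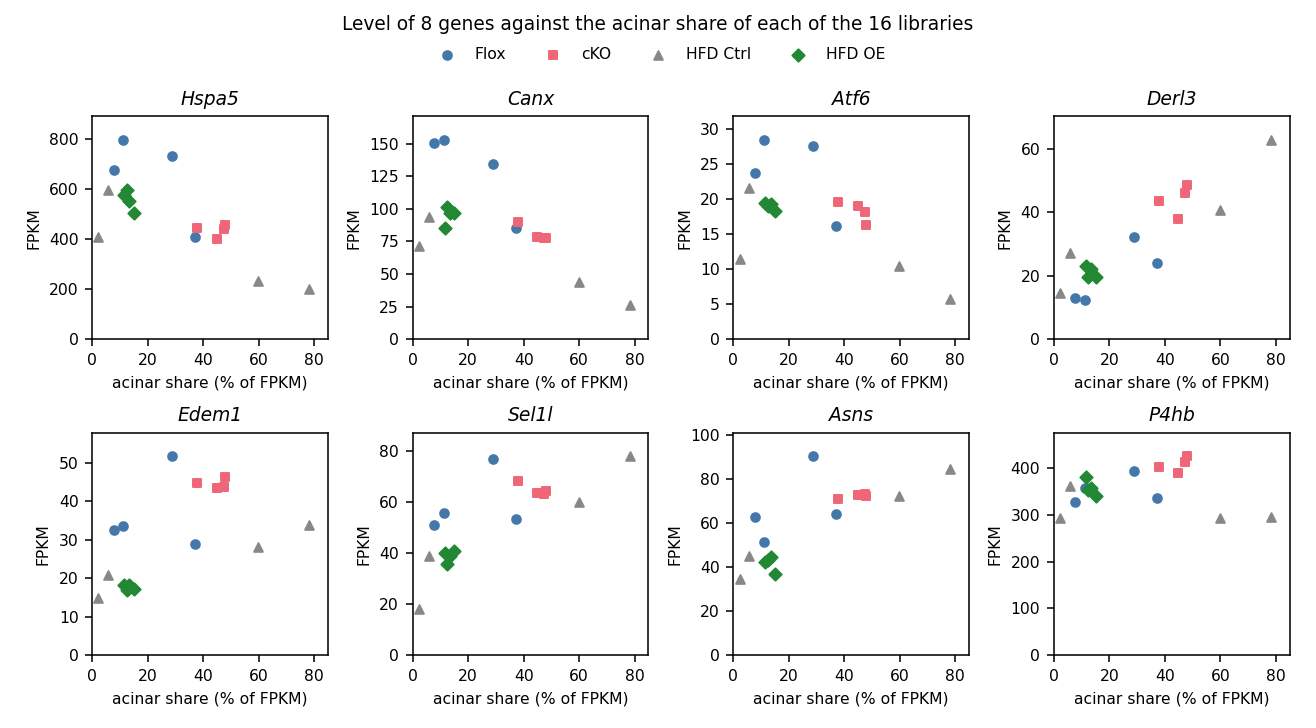
For 8 genes of the set the FPKM of each of the 16 libraries is plotted against its acinar share, the percentage of all FPKM held by 28 acinar marker genes, with a marker for each group. Hspa5, Canx and Atf6 are lowest in the HFD Ctrl library with the largest share, Derl3 and Sel1l are highest there, and P4hb stays between 293 and 425 FPKM.

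Side by side, the groups ranked differently by gene. Edem1 ranged over 28.9 to 51.7 FPKM in Flox, 43.6 to 46.4 FPKM in cKO, 14.9 to 33.9 FPKM in HFD Ctrl and 16.9 to 18.3 FPKM in HFD OE libraries, so the OE range was below both chow ranges. Ppp1r15a was 12.6 to 16.1 FPKM in cKO, 14.0 to 31.4 FPKM in Flox and 39.0 to 62.8 FPKM in OE libraries. Its OE range was above both chow ranges, but the HFD Ctrl range of 8.63 to 63.1 FPKM spanned all of these. Xbp1 ranges overlapped between Flox (118 to 199 FPKM), HFD Ctrl (96.1 to 157 FPKM) and HFD OE (122 to 136 FPKM) libraries, with cKO at 156 to 164 FPKM.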

How the data were processed

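RNA of handpicked mouse islets was sequenced in 16 libraries. The authors deposited FPKM values, 1 table for each diet, normalized separately. The submitters' processing notes name mm10, and the aligner and the counting tool are not given in the sources used here. Values were tested within a table as log2(FPKM + 0.5) for genes whose mean over its 8 libraries reached 0.5 FPKM, by limma 3.58.1 (R 4.3.3, trend and robust empirical Bayes) with Benjamini-Hochberg adjustment over all genes tested, and a gene passed at an adjusted p under 0.05. A fold change on this scale understates that of low genes. The scripts were tested on simulated data. In these both groups had the spread of the cKO or OE libraries, so the wider spread of the Flox and Ctrl libraries was not covered.

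Members and lists were chosen with earlier results of these data known. All members are named: those that passed and the largest difference of each role have library values, and of the other lists the genes that passed are named. Alternatives were other pseudocounts (1 and 0.1), filters, scalings, an acinar term, a replicate block, and omission of libraries. Depth in reads is unknown, so no counting interval is given.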

Additional observations from a re-analysis of the deposited data

Results flagged for a closer look

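In 10 of the 128 pairs of gene and group, 1 of the 4 libraries lay apart from the other 3 by Dixon's criterion, which chance meets in about 1 of 20 pairs, and genes that move together are not separate cases. The Flox16 library was apart for Atf4 at 183 FPKM (74.3 to 80.2 FPKM in the other Flox libraries), Ddit3 at 14.1 FPKM (3.34 to 4.78 FPKM) and Trib3 at 8.85 FPKM (0.571 to 1.58 FPKM), all of the Atf4 branch.

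In Flox17, Herpud1 was 245 FPKM against 169 to 181 FPKM, and in cKO8 Canx was 90.1 FPKM against 77.3 to 78.1 FPKM. In Ctrl3, Chac1 was 15.6 FPKM against 4.82 to 6.55 FPKM in the other HFD Ctrl libraries, and in Ctrl1 P4hb was 363 FPKM against 293 to 295 FPKM. In OE4, Trib3 was 2.07 FPKM against 1.48 to 1.56 FPKM. For Pdia6 in Flox and Dnajc3 in cKO the library apart was the lowest of its group. These were Flox17 at 162 FPKM and cKO12 at 68.1 FPKM, where the highest values were 308 and 76.1 FPKM.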

How the results depend on the processing

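In cKO against Flox, the count of genes that passed (1631) was 1581 to 1808 with a pseudocount of 1 or 0.1 or a minimum mean of 1 FPKM, and the genes of the set that passed were then 1 higher and 4 or 5 lower. It was 7800 (66.1%) with the 3 libraries per group of the study's heatmaps, with 1 higher and 19 lower in the set (62.5%). It was 280.0 with median-of-ratios scaling and 171 with scaling to genes outside the acinar list. It was 0 with the acinar share as a term and 0 when all genes with a mean above 0 were tested. The set gave 0 lower under each of these last 4 settings, and 0 higher apart from P4hb with scaling to genes outside the acinar list. Without trend and robust fitting 1 gene of the set rose and 2 fell (9.38%), when 9.69% of all genes passed. Genes that passed with more than a 2-fold difference (155) were 699 for the heatmap libraries, 84 and 307 with pseudocounts of 1 and 0.1, 36 and 43 with the 2 scalings, 272 without trend and robust fitting, and 0 with the acinar term or all genes. Leaving out each library in turn gave 19 to 7092 genes, 18 to 507 past 2-fold, and in the set 0 to 3 higher and 0 to 19 lower, the low ends without cKO9 (0 higher and 0 lower in the set). Without Flox16 and Flox17, added after seeing the data, 8805 genes passed, 1272 past 2-fold, and 8 and 19 of the set. In these fits, and without Ctrl2 and Ctrl3, the 2 libraries left in a group are assumed to vary like the others. The causes were not tested.

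In HFD OE against Ctrl (4 genes, all past 2-fold), 13 genes passed when all were tested (10 past 2-fold), 10 with scaling to genes outside the acinar list (7 past 2-fold), 542 with the acinar term (259 past 2-fold) and 2993 without Ctrl2 and Ctrl3 (649 past 2-fold), added after seeing the data. The last gave 1 higher and 2 lower in the set, and the other alternatives 0. Leaving out each library gave 4 to 5 genes and none of the set.

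The sources used here do not say whether replicate numbers mark shared litters or batches. Deviations of same-numbered libraries correlated between -0.21 and 0.12 in cKO and Flox, and those of differently numbered ones between -0.25 and 0.33. In OE and Ctrl, same-numbered libraries correlated between -0.13 and 0.10. Such values cannot show that nothing was shared, and the block was run only as an alternative. With the replicate block 2744 genes (23.2%) passed in cKO against Flox (268 past 2-fold), with 1 higher and 10 lower in the set (34.4%). In OE against Ctrl 4 genes passed with the block (4 past 2-fold), with 0 in the set. In this balanced layout the block leaves the fold changes as they are and alters their errors alone.

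The scalings shift nearly all genes together (median-of-ratios scaling moved the median of all genes from -0.34 to -0.00086 in cKO against Flox and from 0.44 to -0.0064 in OE against Ctrl), so a turned sign there reflects a gene's distance from that median. The log2 fold changes that turned in cKO against Flox were, with the acinar share as a term Hyou1 0.23, Dnajb11 0.18, Sdf2l1 0.11, Manf 0.10, Pdia6 0.15, Calr 0.23, Syvn1 0.24, Atf6 0.032, Ern1 0.30, Eif2ak3 0.0067, Trib3 -0.63, Chac1 -0.75, Ppp1r15a 0.11, Asns -0.13, then without Flox16 and Flox17 Atf4 0.18, Atf3 -0.71, Ddit3 0.12, then with the 3 libraries per group of the study's heatmaps Atf3 -0.34, Chac1 -0.017, Sesn2 -0.15, then with median-of-ratios scaling Dnajb11 0.15, Sdf2l1 0.048, Manf 0.016, Calr 0.18, Atf6 0.023, Ern1 0.28, Atf4 0.28, Ddit3 0.14, then with a pseudocount of 0.1 Atf3 -0.0024, then with scaling to genes outside the acinar list Hyou1 0.011, Dnajb11 0.18, Dnajc3 0.022, Sdf2l1 0.078, Manf 0.047, Pdia6 0.010, Calr 0.21, Syvn1 0.017, Atf6 0.052, Ern1 0.31, Atf4 0.32, Ddit3 0.17. Those that turned in OE against Ctrl were, with the acinar share as a term Manf -0.065, Pdia3 -0.047, Sel1l 0.35, Xbp1 -0.15, Ddit3 -0.040, then without Ctrl2 and Ctrl3 Dnajb9 -0.20, Manf -0.27, Pdia3 -0.33, Pdia6 -0.062, Calr -0.0078, Sel1l 0.53, Syvn1 -0.097, Derl3 0.074, Xbp1 -0.22, Ddit3 -0.16, Ppp1r15a -0.060, Asns 0.079, then with the 3 libraries per group of the study's heatmaps Herpud1 -0.098, Chac1 -0.051, then with median-of-ratios scaling Dnajb11 -0.14, Dnajc3 -0.090, Manf -0.092, Creld2 -0.27, P4hb -0.35, Herpud1 -0.53, Syvn1 -0.25, Xbp1 -0.51, Eif2ak3 -0.43, Atf4 -0.043, Ddit3 -0.25, Trib3 -0.0078, Chac1 -0.31, then with scaling to genes outside the acinar list Dnajb11 -0.22, Dnajc3 -0.18, Manf -0.18, Creld2 -0.36, Pdia6 -0.074, P4hb -0.43, Herpud1 -0.62, Syvn1 -0.33, Xbp1 -0.59, Eif2ak3 -0.51, Atf4 -0.13, Ddit3 -0.33, Trib3 -0.060, Chac1 -0.38. Over fits without 1 library, the signs differed for Atf4 (-0.22 to 0.21), Atf3 (-0.25 to 0.40), Ddit3 (-0.42 to 0.23), Chac1 (-0.26 to 0.44), Sesn2 (-0.11 to 0.26) in cKO against Flox and for Herpud1 (-0.084 to 0.24), Sel1l (-0.54 to 0.15), Xbp1 (-0.080 to 0.15), Atf3 (-0.996 to 0.34) in OE against Ctrl.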
